A study of Mus musculus with 12 samples.

Results

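The genes that encode the proteasome were compared between CTCF-deficient and control mouse B cells by RNA-seq. They were taken by name, as all protein-coding genes whose symbol starts with Psm, followed by a letter from a to f and a digit. The mouse annotation holds 46 such genes and 44 of them were among the 12699 genes of the deposited table, with Psma8 and Psmb11 not listed there. Of the 44, 14 encode the constitutive core, 3 the immunoproteasome subunits, 17 the regulatory cap, 3 chaperones that assemble the base of the cap, 5 activators and 1 an inhibitor. The remaining gene, Psmc3ip, fits the name but encodes a partner of the meiotic recombinases and is no subunit. None of the 4 Psm pseudogenes of the annotation was in the table.

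The proteasome is the protease that degrades most ubiquitin-tagged proteins of the cell. Its core is a barrel of stacked rings, in which the outer alpha rings gate the entry and the inner beta rings carry the catalytic sites. The cap binds ubiquitin chains, removes them, unfolds the protein with a ring of ATPases in its base and threads it into the core. In lymphocytes and in cells exposed to interferon gamma, the catalytic subunits Psmb5, Psmb6 and Psmb7 are replaced by Psmb8, Psmb9 and Psmb10, and the resulting immunoproteasome yields many of the peptides shown by MHC class I molecules. The activators Psme1 and Psme2 form a ring in the cytoplasm that is also induced by interferon gamma, whereas Psme3 forms a ring of its own in the nucleus. Transcription of constitutive subunits can be raised as a set by the factor NRF1, encoded by Nfe2l1, together with small MAF proteins. Plasma cell differentiation, with its heavy load of newly made antibody, is a setting in which proteasome capacity is known to matter.

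Splenic B cells of CTCFfl/fl; AID-CRE TG/+ mice and of CTCFfl/+; AID-CRE TG/+ littermates, on a C57BL/6 background and 8 to 12 weeks old, were cultured for 48 h, and hCD2+ B cells were sorted. In one culture the cells received LPS (50 µg/ml) and IL4 (5 ng/ml), and in the other they were cultured with T cells, anti-CD3 (5 µg/ml) and anti-CD28 (1 µg/ml). There were 3 libraries of each genotype in each culture, 12 in all, each from a pool of 2 to 3 mice, and the cultures were handled as separate batches. The comparison of genotypes within a culture asks how transcript levels differ with the loss of CTCF under that stimulus. Both genotypes carry the Cre transgene, which sits with an hCD2 reporter in a construct of the AID locus, so that Cre and hCD2 appear only in cells that switch on AID, and the control cells have 1 floxed Ctcf allele. No source states whether libraries share animals, so the p-values measure the spread between these libraries.

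Ctcf mRNA in CTCFfl/fl cells was at 57.4% of the CTCFfl/+ level in CD3/CD28 and at 49.8% in LPS/IL4 cultures. The libraries held 6934344 to 11227004 reads in CD3/CD28 and 23469188 to 28130440 in LPS/IL4 cultures, so the least precise members were those with few reads in CD3/CD28 libraries. Values are CPM that the authors normalized with edgeR. They sum to 983089 to 1019092 in single libraries, so they were not scaled to library size alone. Since most genes have almost the same deposited mean in either culture, levels were compared only between genotypes of the same culture. The 7 B cell markers examined summed to 3859 to 4282 CPM in CTCFfl/+ and 4465 to 4693 CPM in CTCFfl/fl libraries of CD3/CD28 cultures, with 4 of 7 called higher, against 9.88% of all genes. The 11 T cell markers summed to 93.0 to 119 and 118 to 139 CPM, most of it Lck, while Cd3d, Cd3e and Cd4 each averaged below 0.2 CPM in either genotype there. Cd3g, a further chain of the CD3 complex, rose from 0.968 ± 0.218 to 2.72 ± 0.821 CPM (SD, n = 3 each). The 5 myeloid markers of the table summed to 12.8 to 23.7 and 34.1 to 41.6 CPM, with Itgam and Tyrobp called higher, and the 5 plasma cell markers to 399.9 to 425 and 358 to 429.8 CPM, with Sdc1 and Prdm1 called higher. Adgre1, a macrophage marker, was at 0 in CTCFfl/+ replicates 1 and 3. In LPS/IL4 cultures the 11 T cell markers were at similar levels, 91.4 to 117 CPM in CTCFfl/+ and 118 to 147 CPM in CTCFfl/fl libraries. The part of these marker changes in the results on the proteasome was not tested. In such bulk libraries, fewer cells with a transcript and less of it per cell cannot be told apart.

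In CD3/CD28 cultures 9 of the 44 members were lower in CTCFfl/fl than in CTCFfl/+ cells and none was higher. Over all 12070 genes tested, 18.6% were called, 8.76% as lower and 9.88% as higher, and among those averaging 20 CPM or more, as 42 of the members did, 12.6% were lower. The log2 fold changes of the members were small, with a median of -0.11 against 0.01 for all genes, but 40 of 44 were below zero, as were 49.3% of all genes. The 9 genes were the activator Psme3, the alpha ring subunits Psma3 and Psma5, the ATPases Psmc2 and Psmc5, the base scaffold Psmd1 and the lid subunits Psmd6, Psmd7 and Psmd11. A gene was called at an adjusted p under 0.05 from limma on log2(CPM + 0.5), a scale on which the change of genes with low levels is understated. At an unadjusted p under 0.05 from limma the number was 12 of 44, against 4095 of all 12070 genes in either direction. The genotypes did not overlap in 16 members that were lower and in 1, Psmb9, that was higher. Over all genes 39.6% did not overlap, and 19.5% were lower in this way.

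**Figure D1:**
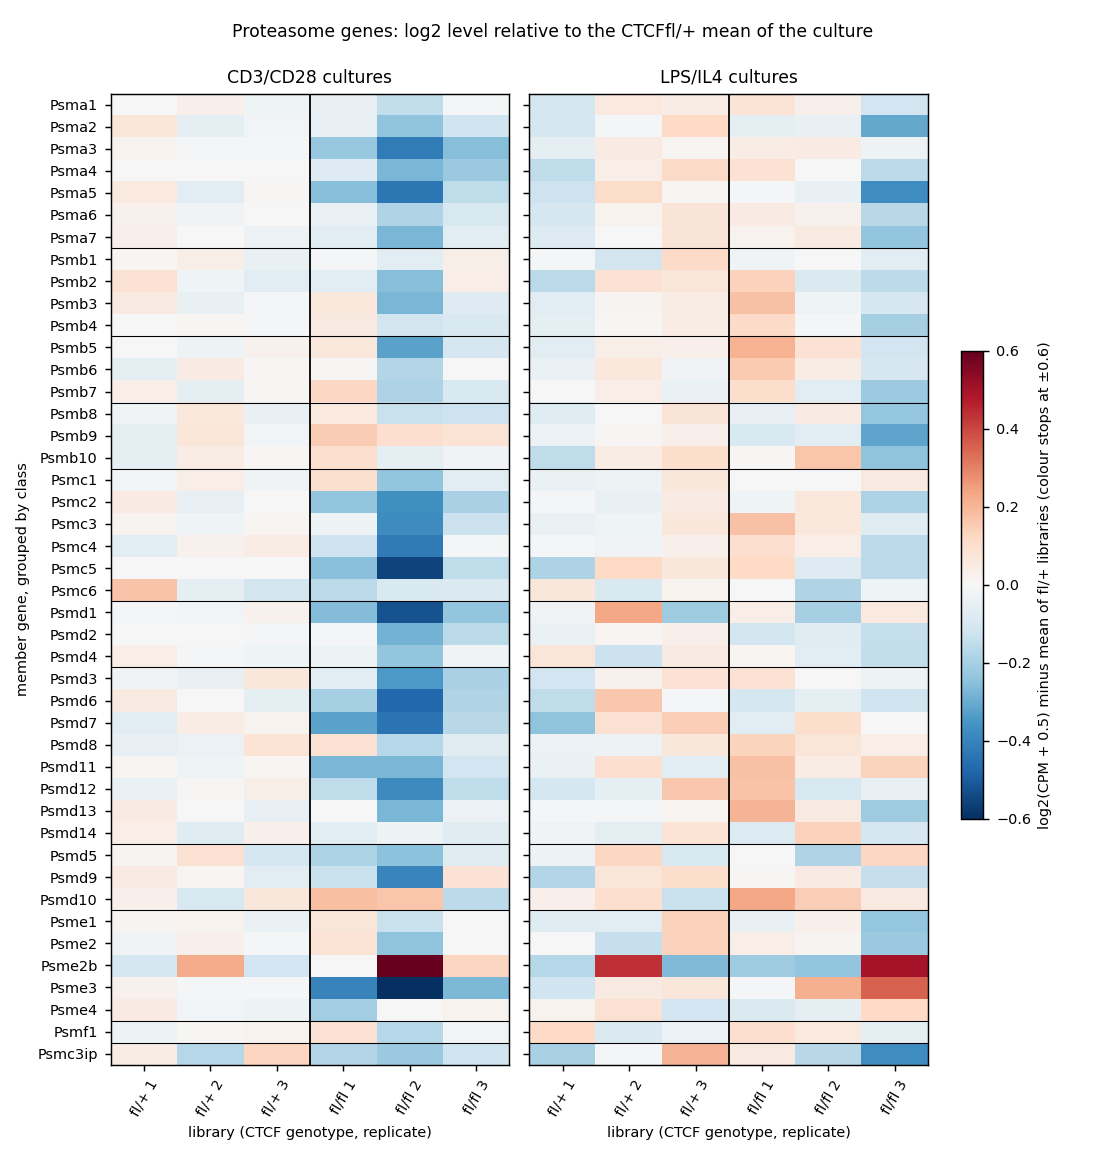
Heat map of the 44 members in each library, grouped by class. Colour gives log2(CPM + 0.5) minus the mean of the 3 CTCFfl/+ libraries of the same culture, with blue for lower and red for higher. In the CD3/CD28 panel the CTCFfl/fl libraries are mostly blue, most deeply in replicate 2, which is the lowest library for 37 of the 44 members.

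Libraries of the same genotype differed. CTCFfl/fl replicate 2 of the CD3/CD28 cultures was the lowest of the 6 libraries for 37 of 44 members, and its median difference from the CTCFfl/+ mean was -0.24 on the log2 scale, against -0.05 and -0.09 in replicates 1 and 3. Over all genes the same medians were 0.02, 0.01 and 0.01. In replicates 1, 2 and 3 the level was below every CTCFfl/+ library for 25, 38 and 26 of the 44 members, and for 35.9%, 37.1% and 33.9% of all genes. The summed level of the members was 6291 to 6351 CPM in CTCFfl/+ and 5434 to 6171 CPM in CTCFfl/fl libraries, so that the genotypes were apart. Without that library 5 members were called, 32 of 44 fold changes were below zero and their median was -0.07. The count of called members was 1, 2 and 1 without CTCFfl/+ replicate 1, 2 and 3. None of the 44 was called when the variances were moderated without a trend over expression. Psme3 then missed the threshold at an adjusted p of 0.052 from limma. Calls over all genes fell as well. With all libraries 1057 of 12070 genes were called lower, and 979 of 11928 without CTCFfl/fl replicate 2. Without CTCFfl/+ replicate 1, 2 and 3 it was 486 of 11933, 603 of 11970 and 407 of 11946 genes, and without the trend 444 of 12070.

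**Figure D2:**
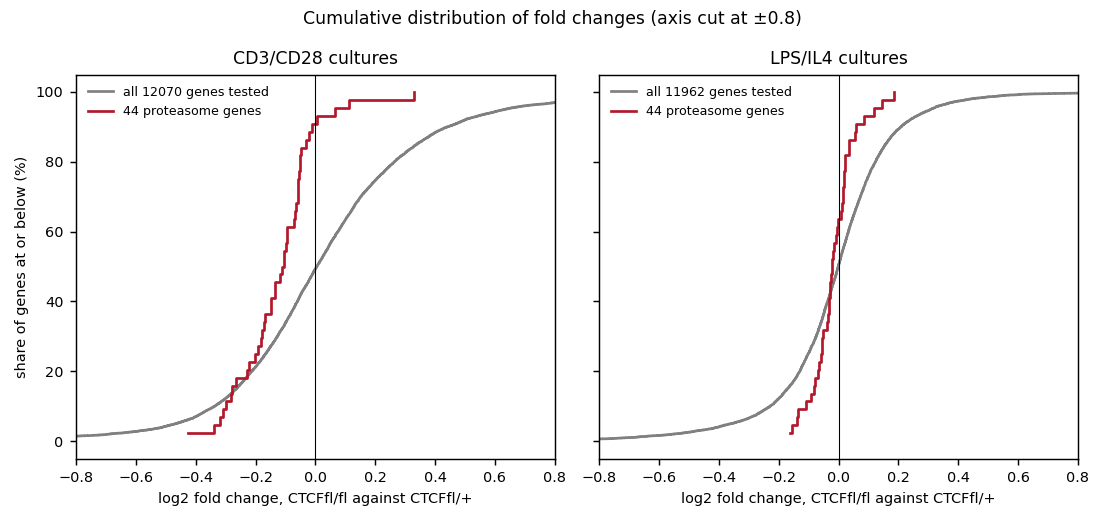
Cumulative share of genes (y axis, %) at or below each log2 fold change of CTCFfl/fl against CTCFfl/+ cells (x axis), for all genes tested in grey and for the 44 members in red. The red curve of the CD3/CD28 panel passes 50% at -0.11 and the grey curve at 0.01, whereas in the LPS/IL4 panel both pass it close to zero.

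In LPS/IL4 cultures none of the 44 members was called. Of all 11962 genes, 0.0334% were called, all of them lower, and the smallest adjusted p of a member was 0.84, for Psme3. No member had an unadjusted p under 0.05 from limma, against 796 of all 11962 genes. The quasi-likelihood test of edgeR and DESeq2, run on whole reads recovered from the CPM, called none either. The median log2 fold change was -0.02, with 28 of 44 below zero. The genotypes did not overlap in 2 members, Psmb9 and Psmd2, both lower, and 5.42% of all genes were lower in this way. Here too, 1 library was low for many members: CTCFfl/fl replicate 3 was the lowest for 24 of 44, with a median difference of -0.12. Without it the median fold change was 0.03 and 15 of 44 were below zero, so the sign of this median depends on that library. It also turned to 0.01 without CTCFfl/+ replicate 3.

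**Figure D3:**
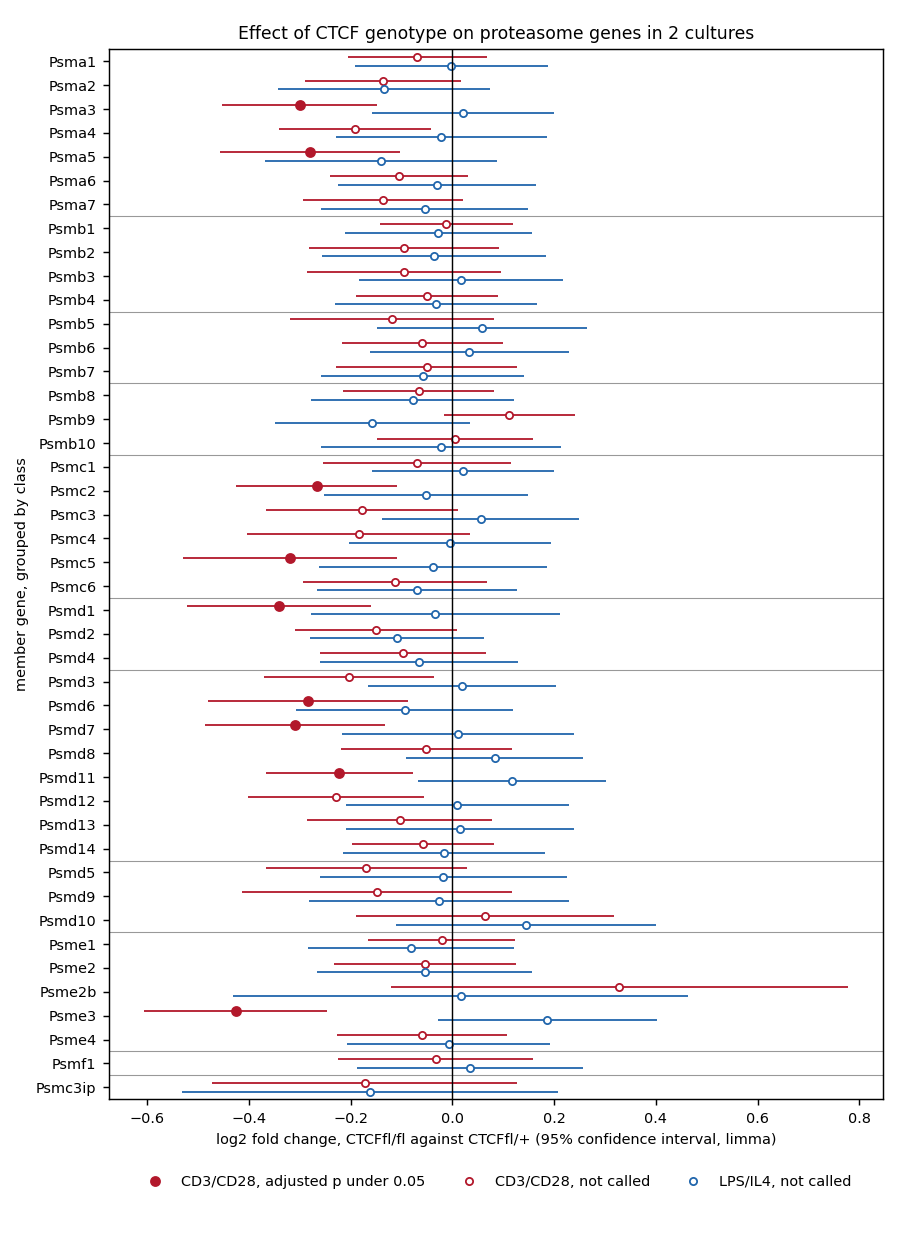
Log2 fold change of each member in CTCFfl/fl against CTCFfl/+ cells with its 95% confidence interval from limma, in CD3/CD28 (red) and LPS/IL4 (blue) cultures. Filled points mark the 9 members called in CD3/CD28 cultures, all to the left of zero, and all points of LPS/IL4 cultures are open.

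Psme3, which builds the nuclear activator ring, had the largest fall of the members. It lies on chromosome 11 from 101316213 to 101323537 (GRCm38). In CD3/CD28 cultures the CTCFfl/+ libraries held 224, 219 and 219 CPM and the CTCFfl/fl libraries 167, 145 and 183 CPM. Every CTCFfl/fl library was thus well below the narrow range of the controls (p = 0.1 in an exact permutation test, two-sided, which cannot go lower with 3 libraries against 3). The mean fell to 74.7% of the control, a log2 fold change of -0.43 (SE 0.08, adjusted p = 0.0067 from limma). In LPS/IL4 cultures the values were 161, 181 and 183 CPM in CTCFfl/+ and 174, 202 and 224 CPM in CTCFfl/fl libraries, which overlapped, with a log2 fold change of 0.19 (95% confidence interval -0.03 to 0.40). The effects differed between the cultures by -0.61 (SE 0.14, adjusted p = 0.019 from limma over 12343 genes), and Psme3 was the only member for which this difference was called, against 7.06% of all genes (3.45% lower and 3.61% higher). Its call in CD3/CD28 cultures was kept in 16 of 17 alternatives and that of the difference in 21 of 22, each being lost only without the variance trend (adjusted p = 0.052 and 0.063 from limma).

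The promoters of 38 members, with 41 start sites, were found among the RefSeq windows (GRCm38.p6), and the 250 bases before the annotated start were searched on both strands for the letters of 4 motifs. Shown are those of Psme3, with the largest change, of Psmd11, a called lid subunit with letters of the CTCF motif, of Psmc2, a called ATPase of the cap that also has them before the first of its start sites, and of Psmb5, a catalytic core subunit with letters of the NRF1 element. Each is written 5′ to 3′ on the strand of its gene, and capitals mark a match to any of the motifs TGACNNNGC (bound by NRF1 with small MAF proteins), CCAAT (NF-Y), GGGCGG (GC box) and the core letters of the CTCF motif (CC, any 3 letters, AG, any 2 letters, GGC).
Psme3 (chr11:101315963-101316212, plus strand): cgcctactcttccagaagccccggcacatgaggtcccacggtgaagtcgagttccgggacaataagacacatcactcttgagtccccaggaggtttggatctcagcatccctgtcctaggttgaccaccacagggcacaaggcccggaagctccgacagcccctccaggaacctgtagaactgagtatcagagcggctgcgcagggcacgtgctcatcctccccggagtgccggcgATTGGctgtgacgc
Psmd11 (chr11:80428365-80428614, plus strand): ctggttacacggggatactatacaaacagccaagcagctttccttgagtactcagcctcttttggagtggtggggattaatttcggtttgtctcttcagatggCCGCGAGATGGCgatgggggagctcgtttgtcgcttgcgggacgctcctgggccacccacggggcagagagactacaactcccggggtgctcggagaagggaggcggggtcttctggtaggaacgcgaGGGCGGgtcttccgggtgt
Psmc2 (chr5:21785025-21785274, plus strand): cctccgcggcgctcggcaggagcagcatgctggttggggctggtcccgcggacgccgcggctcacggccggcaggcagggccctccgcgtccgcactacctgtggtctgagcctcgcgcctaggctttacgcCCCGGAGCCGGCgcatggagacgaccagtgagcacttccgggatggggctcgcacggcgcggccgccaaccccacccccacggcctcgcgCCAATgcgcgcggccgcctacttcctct
Psmb5 (chr14:54617996-54618245, minus strand): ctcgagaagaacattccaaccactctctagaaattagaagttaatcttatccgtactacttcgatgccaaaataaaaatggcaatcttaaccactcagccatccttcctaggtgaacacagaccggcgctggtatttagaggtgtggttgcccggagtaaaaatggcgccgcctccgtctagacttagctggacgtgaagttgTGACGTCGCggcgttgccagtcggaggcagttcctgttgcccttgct

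In the Psme3 window the capitals are a reversed CCAAT box close to the start. That of Psmd11 has a match to the CTCF letters and a GC box, that of Psmc2 a match to the CTCF letters and a CCAAT box, and that of Psmb5 a match to the NRF1 letters. Over the 41 windows of members, TGACNNNGC was found in 12.2% and in 10.2% of all 32851 windows, and in none of the 9 windows of called members. These 9 windows cover 8 of the called members, as Psmd7 had none and Psmc2 had 2. CCAAT was in 34.1% of member windows and 33.8% of all, and in 3 of the 9 windows of called members. GGGCGG was in 53.7% and 32.7%, and also in 3 of those 9. The CTCF letters were in 19.5% of member windows and 7.17% of all, and in 2 of the 9 windows of called members. These were that of Psmd11 and the first of Psmc2, whose other window had no match. The remaining matches were in windows of members that were not called: Psma1, Psma6, Psmc4, Psmd14, Psmf1 and Psmc3ip, the last of which is no subunit. Such a match describes the sequence and shows no binding, and the windows end at the start site that RefSeq gives.

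In the alpha ring, which gates the barrel, all 7 members had a fold change below zero in CD3/CD28 cultures, and 2 of 7 were called. Over all genes 49.3% were below zero and 8.76% were called lower, or 12.6% of those averaging 20 CPM or more. Psma3 (chromosome 12 from 70974621 to 70996347) stood at 132, 129 and 128 CPM in CTCFfl/+ and 111, 97.0 and 109 CPM in CTCFfl/fl libraries. The genotypes were apart, and the mean fell to 81.3% of the control (log2 fold change -0.30, SE 0.07, adjusted p = 0.014 from limma). Psma5 (chromosome 3 from 108256926 to 108279974) went from 142, 130.0 and 137 to 114, 101 and 123 CPM, again without overlap, at a log2 fold change of -0.28 (adjusted p = 0.034 from limma). Psma1 had the smallest difference in this ring, with 173, 177 and 170.0 CPM in CTCFfl/+ and 168, 156 and 172 CPM in CTCFfl/fl libraries, which overlapped (-0.07, adjusted p = 0.47 from limma). Psma4, Psma6 and Psma7 were lower in every CTCFfl/fl library without being called. With the called genes, 5 of 7 members of the ring were apart in this way, against 19.5% of all genes. With LPS/IL4, Psma3 had a log2 fold change of 0.02 (95% confidence interval -0.16 to 0.20) and the ring ranged from -0.14 for Psma5 to 0.02 for Psma3. The difference between the cultures was -0.32 for Psma3 (adjusted p = 0.054 from limma).

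None of the 7 constitutive beta subunits was called, in either culture. The non-catalytic ones, which complete the inner rings, ranged from -0.10 for Psmb3 to -0.01 for Psmb1 in CD3/CD28 cultures. Psmb1 stood at 189.5, 192 and 182 CPM in CTCFfl/+ and 187, 179.8 and 192 CPM in CTCFfl/fl libraries, and Psmb3 at 114, 106 and 109 and 115, 90.5 and 104 CPM. Both pairs of groups overlapped, with the lowest value of each in CTCFfl/fl replicate 2. Of the catalytic ones, Psmb5, the chymotrypsin-like site, held 108, 106 and 110.4 CPM in CTCFfl/+ and 113, 86.7 and 101 CPM in CTCFfl/fl libraries, a log2 fold change of -0.12 (95% confidence interval -0.32 to 0.08). Psmb6, the caspase-like site, held 109, 117 and 114 and 114, 100.4 and 113 CPM (-0.06, -0.22 to 0.10). For Psmb7, the trypsin-like site, the values were 182, 170.4 and 178 and 193, 155 and 166 CPM (-0.05, -0.23 to 0.13). All overlapped, and the interval of Psmb5 includes the falls called in the alpha ring. With LPS/IL4, Psmb5 was at 96.7, 103 and 103 CPM in CTCFfl/+ and 117, 107 and 93.2 CPM in CTCFfl/fl libraries, Psmb6 at 105, 113 and 107 and 121, 111 and 101 CPM, and Psmb7 at 176, 181 and 171 and 189.6, 168 and 151 CPM. These overlapped as well, with log2 fold changes of 0.06, 0.03 and -0.06.

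The immunoproteasome subunits were not called either. Psmb8 and Psmb9 lie 9956 bases apart in the MHC region of chromosome 17, and per kb of the longest coding transcript their levels in CTCFfl/+ cells of CD3/CD28 cultures were 322 and 271 CPM. The subunits they replace were at 121 (Psmb5) and 142 CPM per kb (Psmb6), and Psmb10 and its counterpart Psmb7 at 72.8 and 152 CPM per kb. Replacement subunits were thus the more abundant transcripts for 2 of the 3 sites. Psmb8 held 517, 548 and 509 CPM in CTCFfl/+ and 546, 479 and 480.5 CPM in CTCFfl/fl libraries of CD3/CD28 cultures, which overlapped (log2 fold change -0.07, 95% confidence interval -0.22 to 0.08, adjusted p = 0.53 from limma). Psmb10 was nearly level, with 92.0, 98.4 and 96.0 and 102, 91.5 and 93.9 CPM (0.01, -0.15 to 0.16). After LPS/IL4 stimulation Psmb8 stood at 508, 534 and 565 CPM in CTCFfl/+ and 517, 553 and 455 CPM in CTCFfl/fl libraries, and Psmb10 at 87.0, 99.9 and 104 and 97.4, 109 and 81.8 CPM, all overlapping.

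Psmb9 had effects of opposite sign in the cultures, neither past the threshold. It lies on chromosome 17 from 34181987 to 34187764 and its annotated span overlaps that of Tap1, the peptide transporter gene on the other strand, by 212 bases. The library kit marks no strand, so reads from the shared stretch cannot be told apart. In CD3/CD28 cultures it held 351, 384 and 361 CPM in CTCFfl/+ and 407, 392 and 387 CPM in CTCFfl/fl libraries, every one of which was higher (0.11, 95% confidence interval -0.02 to 0.24, adjusted p = 0.21 from limma). With LPS/IL4 it held 397, 409 and 416 CPM and 382, 389.7 and 327 CPM, every CTCFfl/fl library being lower (-0.16, -0.35 to 0.03, adjusted p = 0.86 from limma). The difference of the effects was 0.27 (95% confidence interval 0.05 to 0.48) and was not called after adjustment (adjusted p = 0.12 from limma). For Tap1 itself the effects were 0.16 and -0.22, and their difference of 0.38 was called (adjusted p = 0.032 from limma). The call for Tap1 was kept in 12 of 22 alternatives, over which the adjusted p reached 0.10, and in 4 of the 12 that left out 1 library.

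**Figure D4:**
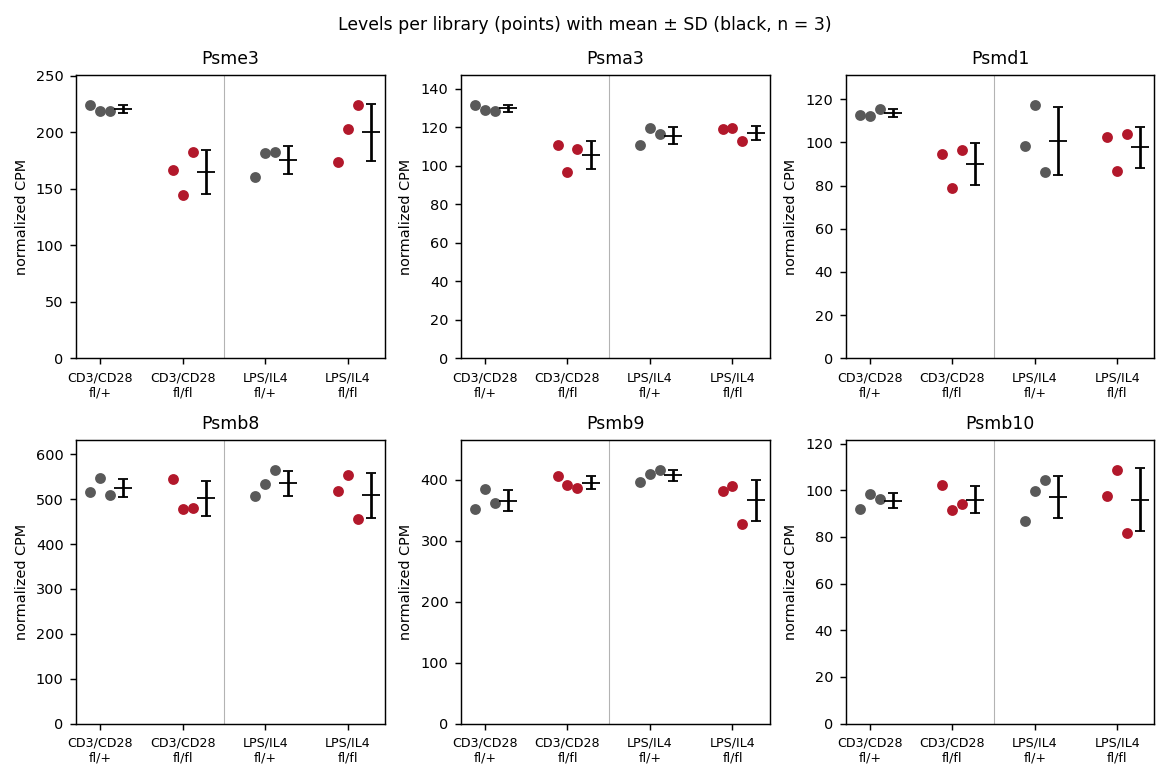
Normalized CPM of 6 members in each library (points, y axes from 0), with mean ± SD of the 3 libraries of each group in black. Psme3, Psma3 and Psmd1 are lower in all CTCFfl/fl libraries of the CD3/CD28 cultures, while Psmb8 and Psmb10 overlap and Psmb9 is higher there and lower in LPS/IL4 cultures.

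Of the 9 called members, 6 belong to the regulatory cap. All 17 members of the cap had a fold change below zero in CD3/CD28 cultures, with a median of -0.18, against 49.3% of all genes. Of the 17, 6 were called, against 8.76% of all genes called lower and 12.6% of those averaging 20 CPM or more. The genotypes were apart, with CTCFfl/fl lower, in 10 of 17, against 19.5% of all genes. Psmd1, the large scaffold of the base that docks ubiquitin receptors (chromosome 1 from 86064387 to 86139151), held 113, 112 and 115 CPM in CTCFfl/+ and 94.6, 79.0 and 96.3 CPM in CTCFfl/fl libraries. Its groups were apart, and the mean fell to 79.2% of the control (log2 fold change -0.34, SE 0.08, adjusted p = 0.017 from limma). After LPS/IL4 stimulation the values were 98.3, 117 and 86.1 and 103, 86.9 and 104 CPM, whose ranges overlapped. Psmd4, a ubiquitin receptor of the base, had the smallest difference among the base subunits without ATPase activity, with 121, 117 and 116 CPM in CTCFfl/+ and 115, 99.9 and 116 CPM in CTCFfl/fl libraries (-0.10, adjusted p = 0.39 from limma). Psmd2, the other scaffold, was below the controls in every CTCFfl/fl library in both cultures but was called in neither (-0.15 and -0.11).

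Of the 6 ATPases, the unfolding motor of the cap, 2 were called lower in CD3/CD28 cultures. The share called lower was 8.76% over all genes and 12.6% over those averaging 20 CPM or more. Psmc5 (chromosome 11 from 106256154 to 106263120) held 110.4, 111 and 110.1 CPM in CTCFfl/+ and 92.7, 75.1 and 99.3 CPM in CTCFfl/fl libraries (log2 fold change -0.32, SE 0.10, adjusted p = 0.041 from limma). The controls were nearly identical and the CTCFfl/fl libraries all lower, replicate 2 most. Psmc2 (chromosome 5 from 21785283 to 21803787) went from 95.9, 89.5 and 92.5 to 78.4, 71.7 and 80.8 CPM, without overlap (-0.27, SE 0.07, adjusted p = 0.027 from limma). Psmc1 showed the smallest difference, with 119.7, 124 and 119 and 129, 103 and 116 CPM, and its groups overlapped (-0.07, adjusted p = 0.60 from limma). Psmc3 was below the controls in every CTCFfl/fl library without being called, and Psmc4 and Psmc6 overlapped. With LPS/IL4 the 6 ATPases lay between -0.07 for Psmc6 and 0.06 for Psmc3.

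The lid, which carries the deubiquitinase Psmd14, had 3 of its 8 members called lower, against 8.76% of all genes and 12.6% at 20 CPM or more. Psmd7, the partner of Psmd14 (chromosome 8 from 107580381 to 107588464), held 102, 109.7 and 108 CPM in CTCFfl/+ and 85.2, 78.2 and 94.7 CPM in CTCFfl/fl libraries of CD3/CD28 cultures (-0.31, SE 0.08, adjusted p = 0.024 from limma). Psmd11, which links lid, base and core (chromosome 11 from 80428615 to 80473248), held 158, 154 and 158 and 129, 129.6 and 145 CPM (-0.22, SE 0.07, adjusted p = 0.040 from limma). Psmd6 (chromosome 14 from 14112174 to 14120984) held 76.4, 73.7 and 70.6 and 63.9, 52.9 and 64.8 CPM (-0.28, SE 0.09, adjusted p = 0.048 from limma). In all of these the genotypes were apart. Psmd14 itself stood at 119 ± 5.09 CPM in CTCFfl/+ and 114 ± 1.90 CPM in CTCFfl/fl cells (SD, n = 3 each), and the confidence interval of its log2 fold change spanned -0.20 to 0.08. Psmd8 had the smallest difference of the lid, with 227, 229 and 249 and 250.3, 208 and 223 CPM, which overlapped (-0.05). Psmd3 and Psmd12 were lower in every CTCFfl/fl library but were not called, and Psmd13 overlapped. Psmd11 came nearest to a difference between the cultures after Psme3, at -0.34 (effects -0.22 and 0.12, adjusted p = 0.051 from limma), and its LPS/IL4 libraries held 135, 149 and 133 CPM in CTCFfl/+ and 157, 143 and 153 CPM in CTCFfl/fl cells, with overlap.

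These calls were less stable than that of Psme3. When each of the 6 CD3/CD28 libraries was left out in turn, Psma3 kept its call in 4 of 6, Psmd1 and Psmc2 in 3, Psmd7 in 2 and Psma5, Psmc5, Psmd6 and Psmd11 in 1, whereas Psme3 kept it in 6. The direction stayed negative for each of the 9 in every alternative. As the genotypes were apart for all 9, leaving out a library could not turn it. Under all 17 alternatives their largest adjusted p ranged from 0.052 for Psme3 to 0.15 for Psmd6. Conversely, Psma4, Psmd2 and Psmd3 passed the threshold only without CTCFfl/fl replicate 1 (adjusted p = 0.031, 0.045 and 0.034 from limma).

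The chaperones of the base were not called. Psmd5 held 39.8, 41.9 and 36.5 CPM in CTCFfl/+ and 34.4, 33.1 and 37.4 CPM in CTCFfl/fl libraries of CD3/CD28 cultures (-0.17, adjusted p = 0.21 from limma) and Psmd10, known as gankyrin, held 23.3, 21.3 and 23.9 and 25.9, 25.7 and 20.4 CPM (0.06, adjusted p = 0.74 from limma). Both overlapped between the genotypes, as did Psmd9.

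None of the other activators was called. Psme1 and Psme2, which lie 5.9 kb apart on chromosome 14, encode the subunits of the interferon-inducible ring. In CD3/CD28 cultures Psme1 held 304, 305 and 292 CPM in CTCFfl/+ and 315, 273 and 300.2 CPM in CTCFfl/fl libraries (-0.02, 95% confidence interval -0.17 to 0.12), and Psme2 held 199, 206 and 201 and 214, 171 and 202 CPM (-0.05, -0.23 to 0.12). Both overlapped, and the lower bound of each interval lies above the estimate for Psme3. After LPS/IL4 stimulation Psme1 stood at 296, 298 and 342 CPM in CTCFfl/+ and 302, 317 and 265 CPM in CTCFfl/fl libraries, and Psme2 at 206, 187 and 227 and 212, 209 and 177 CPM, with the lowest value of each in CTCFfl/fl replicate 3. Psme4, the large nuclear activator, held 115, 110.3 and 109 and 96.7, 112 and 113 CPM in CD3/CD28 cultures (-0.06, -0.23 to 0.11) and 111, 117 and 101 and 103, 106 and 119 CPM in LPS/IL4 cultures, overlapping in both. Psmf1, which encodes the proteasome inhibitor of this set, held 41.4, 42.4 and 42.8 and 44.9, 37.5 and 41.7 CPM in CD3/CD28 cultures (-0.03, -0.22 to 0.16) and 44.3, 38.4 and 39.7 and 43.7, 42.5 and 39.2 CPM in LPS/IL4 cultures, with overlap as well.

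Psme2b is a near copy of Psme2, and reads that fit both genes make its level uncertain. It had the largest positive fold change of the members, 0.33 in CD3/CD28 cultures, but a wide interval (-0.12 to 0.78). Its libraries held 13.1, 16.5 and 13.0 CPM in CTCFfl/+ and 14.1, 25.9 and 15.5 CPM in CTCFfl/fl cells there, and 14.4, 22.3 and 13.5 and 14.0, 13.8 and 23.2 CPM in LPS/IL4 cultures. Single libraries stood out in both genotypes: CTCFfl/fl replicate 2 in CD3/CD28, and CTCFfl/+ replicate 2 and CTCFfl/fl replicate 3 in LPS/IL4 cultures. Psmc3ip, which is no subunit, held 10.6, 9.09 and 11.3 CPM in CTCFfl/+ and 9.07, 8.76 and 9.44 CPM in CTCFfl/fl libraries of CD3/CD28 cultures and was not called (-0.17, adjusted p = 0.41 from limma). Without it the counts were 9 of 43 called in CD3/CD28 and none of 43 in LPS/IL4 cultures.

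Genes that work with the proteasome were examined as lists, of which none had a called gene in LPS/IL4 cultures. Of 15 genes for enzymes and shuttle proteins that bind the proteasome, 7 were lower in CD3/CD28 cultures, none higher and all 15 below zero, against 8.76% lower, 9.88% higher and 49.3% below zero over all genes. Their median log2 fold change was -0.19, against 0.01 for all genes. Among all genes averaging 20 CPM or more, 12.6% were called lower. Rad23b, a shuttle for ubiquitinated proteins, went from 235, 230.2 and 227 CPM in CTCFfl/+ to 191, 192 and 202 CPM in CTCFfl/fl libraries (-0.24, adjusted p = 0.016 from limma). Ube3a, a ubiquitin ligase bound to the cap, fell to 68.2% of the control (-0.58, adjusted p = 0.024 from limma), Ubqln4, a second shuttle, to 78.8% and Ecpas, an adaptor and scaffold of the proteasome, to 84.0%. The genotypes were apart for each of these. Of the cap subunits that the name rule misses, Adrm1, a ubiquitin receptor, fell (-0.27, adjusted p = 0.041 from limma), and Sem1, a small lid subunit, rose (0.27, adjusted p = 0.048 from limma). Their calls were kept in 8 and 5 of 17 alternatives, respectively. None of the 5 assembly factors tested was called.

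Of 11 genes of the NRF1 pathway and the related NRF2 pathway, 2 were lower in CD3/CD28 cultures and none higher, against 8.76% and 9.88% of all genes. The share called lower was 12.6% of genes averaging 20 CPM or more. The median log2 fold change of the 11 was -0.23, with 7 of 11 below zero. In this list Nfe2l2, Keap1, Bach1, Hmox1 and Gclm stand for the NRF2 pathway, so these counts are not those of NRF1 alone. Nfe2l1, encoding NRF1 itself, held 119, 125 and 127 CPM in CTCFfl/+ and 107, 90.8 and 106 CPM in CTCFfl/fl libraries (-0.29, SE 0.08, adjusted p = 0.026 from limma). It lost its call without CTCFfl/+ replicate 1, 2 or 3, without the variance trend and in a single fit of all 12 libraries (range of the adjusted p 0.013 to 0.11). Mafg, a small MAF partner, held 52.8, 55.4 and 53.7 and 42.0, 41.9 and 40.9 CPM (-0.37, SE 0.07, adjusted p = 0.0071 from limma) and kept its call in all 17 alternatives. In both genes every CTCFfl/fl library was lower than every control. In LPS/IL4 cultures the effects were 0.04 and 0.20, and that of Mafg differed from the CD3/CD28 effect by -0.57 (adjusted p = 0.018 from limma).

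Of the segregase p97 and its cofactors, which extract ubiquitinated proteins from complexes and membranes, 2 of 10 were lower in CD3/CD28 cultures and none higher, again against 8.76% and 9.88% of all genes, with a median of -0.16. Vcp, p97 itself, went from 487, 476 and 485 CPM in CTCFfl/+ to 416, 369 and 415 CPM in CTCFfl/fl libraries (-0.27, adjusted p = 0.014 from limma), and its cofactor Nploc4 fell to 82.8% of the control. MHC class I peptide loading had 2 of 8 genes lower and none higher (median -0.11), against the same shares of all genes. Of genes averaging 20 CPM or more, 12.6% were called lower. The 2 were the trimming peptidase Erap1 (-0.36, adjusted p = 0.0069 from limma) and the chaperone Calr (-0.27, adjusted p = 0.016 from limma). Of 10 genes of interferon gamma signalling, the pathway that induces the immunoproteasome, 3 rose and 2 fell, with a median of 0.13, where 18.6% of all genes were called. The receptor chain Ifngr1 went from 26.4, 33.5 and 32.9 CPM in CTCFfl/+ to 50.4, 49.8 and 44.6 CPM in CTCFfl/fl libraries (0.64, adjusted p = 0.0032 from limma), without overlap. The kinase Jak1 rose as well (0.27), the other chain, Ifngr2, fell (-0.38), and the kinase Jak2 fell too (-0.37). The third gene that rose was the transcription factor Irf8 (0.22, adjusted p = 0.046 from limma), which lies outside the naming rule and was chosen after its value was seen.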

How the data were processed

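The authors used CASAVA 1.8 for demultiplexing, Cutadapt for trimming, RSEM 1.17 with GRCm38 (Ensembl release 76) for quantification and edgeR for normalization, and deposited the result as CPM. Of 12699 genes, 12598 took their name from GENCODE M21. In each library 100% of the values were whole multiples of the value of 1 read (within 0.01), so whole reads were recovered.

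Each culture was fitted alone with limma 3.58.1 (R 4.3.3) on log2(CPM + 0.5) with a variance trend, two-sided, testing a gene if 3 or more libraries of the fit had 1 CPM or more, with Benjamini-Hochberg adjustment over all genes. An interaction term over 12 libraries compared the cultures. Other settings tried were a pseudocount of 0.1 or 1, quantile or median-of-ratios scaling, a filter at a mean of 5 CPM or none, no variance trend, a block for the replicate number, all libraries in 1 fit (not for the interaction), each library left out, and edgeR 4.0.16 (quasi-likelihood) and DESeq2 1.42.0 on the recovered reads, where edgeR called 2240 genes and DESeq2 1927 in CD3/CD28 cultures (4 and 37 with LPS/IL4). Leaving out a library leaves 2 in its group.

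Printed per library were the immunoproteasome subunits and their counterparts, Psme1 to Psme4, Psmf1, all called members and the extremes of each class in CD3/CD28 cultures. Up to 4 genes of each list, those with the smallest adjusted p there, could be named. Members and lists were chosen with earlier results of these data known. Doses and ages are those of the sample records. The study's methods give other values for some of these. A motif and a list of ubiquitin genes are not reported here. The limma and edgeR fits were tested on simulated data with changes larger than those of the called members. How well changes as small as theirs are recovered was not tested.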

Additional observations from a re-analysis of the deposited data

Results flagged for a closer look

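The effect of CTCF genotype differed between the CD3/CD28 and LPS/IL4 cultures for 6 of the members and pathway genes examined, and for a pair of marker genes (interaction in limma, n = 3 libraries in each group). These 6 were 1 of 44 members, 1 of 15 proteasome-bound enzymes and shuttles and 1 of 11 genes of the NRF1 and NRF2 list. They also held 1 of 8 genes of peptide loading and 2 of 10 of interferon gamma signalling. The other lists had none, and over all genes 7.06% were called. For Psme3 the difference of the log2 fold changes was -0.61 (SE 0.14, adjusted p = 0.019 from limma), from effects of -0.43 (CD3/CD28) and 0.19 (LPS/IL4). Mafg, encoding a small MAF protein, had a difference of -0.57 (adjusted p = 0.018 from limma), from -0.37 and 0.20. The receptor chain Ifngr1 differed by 0.67 (adjusted p = 0.019 from limma), with 0.64 and -0.04. For Tap1, the peptide transporter subunit, the difference was 0.38 (adjusted p = 0.032 from limma).

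A further pair of genes lies outside the naming rule and was chosen after the values were seen. Nlrc5, a transactivator of MHC class I genes, differed by 0.43 (adjusted p = 0.027 from limma), with effects of 0.09 and -0.35, neither called alone. Ubqln1, a shuttle protein, differed by -0.31 (adjusted p = 0.041 from limma), with -0.14 and 0.16. Of the markers of other cell types, the difference was 1.69 for Prdm1, a plasma cell factor (adjusted p = 0.011 from limma, effects 1.27 and -0.41), and 1.47 for Itgam, a myeloid integrin (adjusted p = 0.021 from limma, effects 1.81 and 0.34), and their part in the other differences was not tested. As the stimuli were separate batches, culture and batch cannot be told apart in these differences. No group of 4 or more libraries was available to look for single outlying libraries.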

How the results depend on the processing

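The number of members called in CD3/CD28 cultures was 9, and 6 to 9 under 10 alternatives of the processing. Without a variance trend it was 0, and with single libraries left out it ranged from 1 to 9. Over all genes 2250 were called in either direction, and 1830 to 2280 under those 10 alternatives. Without the trend it was 1092 genes, and with single libraries left out 1005 to 2321. In LPS/IL4 cultures the number of members called was 0 under every alternative. The difference between the cultures was called for 1 member, Psme3, and for 0 without the trend. Psmd11 joined it with median-of-ratios scaling (2 members), with a mean of at least 5 CPM (2) and, with Psma3 too, in DESeq2 (3), and the count was 1 to 2 with single libraries left out. The causes were not tested. With the replicate number as a block the counts were 7, 0 and 1. Whether the numbers pair the libraries cannot be decided with 3 libraries in each group. Correlations of same-numbered deviations were -0.12 to 0.06 in CD3/CD28 and -0.12 to 0.37 in LPS/IL4 cultures. Those of differently numbered libraries were -0.12 to 0.11 and -0.34 to 0.28. Of single genes, 118 values in CD3/CD28 cultures fell short of the threshold that the reported value passed, 7 passed it newly and no called value changed sign. The CD3/CD28 libraries were the shallower ones, which limits members with few reads, such as Psme2b and Psmc3ip. For genes called neither in the report nor under an alternative, a change of sign was not counted as a reversal.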

Other observations

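A pair of members lies on the chromosome of Ctcf itself, chromosome 8. Psmb10 is 252.8 kb from Ctcf and Psmd7 1897.5 kb from it (GRCm38). Psmb10 was at 100.5% of the control with CD3/CD28 and 98.8% with LPS/IL4, and Psmd7 at 80.8% and 100.2%, with only the first of the Psmd7 values called. Psme3 and Psmc3ip are 220.8 kb apart on chromosome 11, with log2 fold changes of -0.43 and -0.17 with CD3/CD28 and of 0.19 and -0.16 with LPS/IL4.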
